A study of Drosophila melanogaster with 6 samples.

Results

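The vacuolar ATPase (V-ATPase) genes of Drosophila melanogaster were followed in RNA-seq libraries of the eye disc and the antennal disc. Members were all genes whose FlyBase symbol starts with Vha, a rule that uses no measured value. The annotation holds 33 such genes, and 32 of them were matched by identifier among the 17753 genes of the expression tables. Vha44, the gene of subunit C, was not matched by identifier and is not analysed here. The eye disc and the antennal disc are the joined epithelial sacs of the larva that form the eye, antenna and large areas of the cuticle of the adult head. There were 3 libraries of polyadenylated RNA per tissue, each prepared from 30 discs of third-instar larvae. All 6 libraries carried the same yw;+;+ genotype, that of a stock mutant for yellow and white which the series describes as carrying no transgene. The labels call the libraries of a tissue biological replicates, and do not say whether the larvae of different libraries came from separate cultures. The p-values then measure the spread between these libraries.

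The V-ATPase is a rotary proton pump that acidifies endosomes, lysosomes and secretory vesicles. Its peripheral V1 sector, built of subunits A to H, splits ATP, and its membrane sector V0, built of subunits a, c, c'', d and e, moves protons through a ring of c subunits. An accessory membrane protein, Ac45, joins the complex. In the fly several subunits have more than 1 gene, and in the nervous system the a subunit gene Vha100-1 is known for its work at synapses of photoreceptors.

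The libraries held between 17583649 and 29093995 estimated counts, and eye disc replicate 2 was the shallowest. The tissue labels were borne out by marker genes: the summed level of ey, eya, so and gl was 1003 to 1116 counts per-million (CPM) in eye disc and 74.9 to 105 CPM in antennal disc, and that of Dll, ss, disco and Lim1 was 42.5 to 56.1 against 431 to 538 CPM. Eye disc replicate 2 stood apart. Its 5 fat body markers, larval serum protein and fat body protein genes, summed to 23873 CPM against 3217 to 7833 CPM elsewhere. The salivary gland glue gene Sgs7, singled out after its values were seen, was at 23621 CPM there and at 124 to 478 CPM in the other 5 libraries.

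The genes were split into 2 classes by level. A mean of at least 10 CPM over the 6 libraries, with both tissues weighted equally, was met by 17 genes, here called widely expressed, and 15 were lower. The threshold lay between VhaM9.7-c at 10.9 CPM, the lowest inside, and VhaM9.7-a at 3.30 CPM, the highest outside. Next inside were Vha68-1 at 14.9 and VhaAC45RP at 19.6 CPM, and next outside was Vha36-3 at 0.746 CPM. Vha68-1 and VhaAC45RP passed through eye disc means of 24 and 34.1 CPM, with antennal disc means of 5.87 and 5.12 CPM. The other 14 widely expressed genes had means over 50 CPM. Each of the 13 measured subunits had at least 1 of these 14 genes, and subunit a had both Vha100-1 and Vha100-2.

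**Figure D1:**
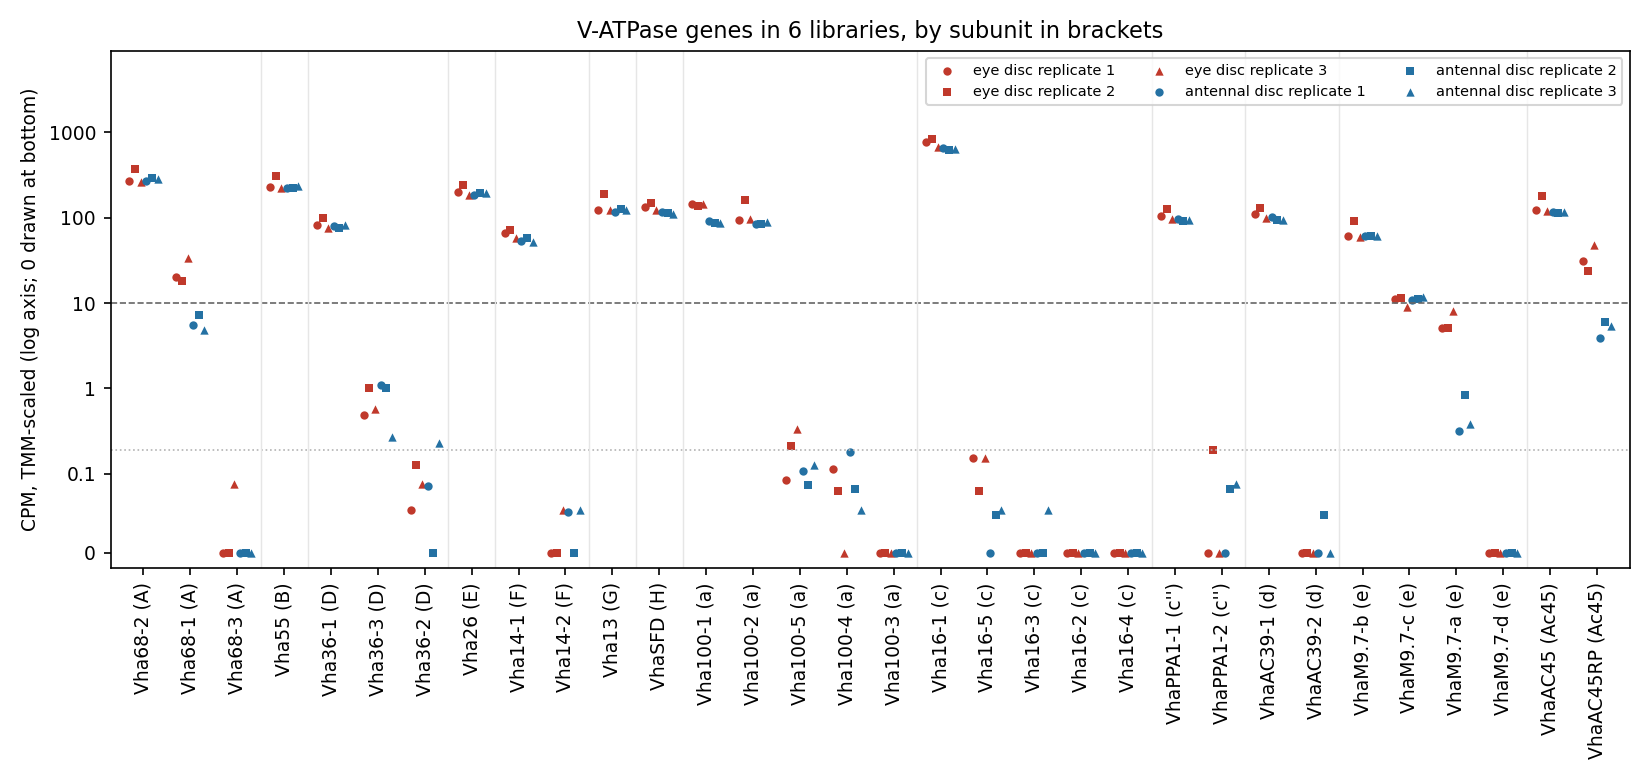
Level of each of the 32 measured V-ATPase genes in the 6 libraries, in TMM-scaled CPM on a log axis, with genes grouped by subunit; the dashed line marks 10 CPM and the dotted line the highest value that 3 counts take in any library (0.192 CPM). Each subunit has at least 1 gene well above the dashed line, and the low paralogues, other than VhaM9.7-a and Vha36-3, stay at or under 0.338 CPM.

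In the V1 sector the catalytic subunit A was carried by Vha68-2 (FBgn0263598, 2L, 12974322 to 12978607 in dm6). Its level was 268, 372 and 264 CPM in eye disc replicates 1, 2 and 3 and 268, 290 and 284 CPM in antennal disc replicates 1, 2 and 3. The tissues overlapped, and eye disc replicate 2 was the highest library. Vha55 (FBgn0005671, 3R, 12623762 to 12627829), the single gene of subunit B, which pairs with A in the ATP-splitting head, was at 230, 307 and 223 CPM against 221, 220 and 233 CPM. Its ranges overlapped too, again with eye disc replicate 2 highest. The single gene of subunit E, a part of the outer stalk, is Vha26. It was at 201, 240 and 185 CPM in eye disc against 186, 192 and 194 CPM in antennal disc. Vha13, the gene of subunit G, which runs beside E in that stalk, was at 123, 188 and 122 CPM against 118, 125 and 122 CPM. Both were highest in eye disc replicate 2, and the ranges of the tissues overlapped. Vha36-1, of the central stalk subunit D, was at 81.9, 99.6 and 75.1 CPM in eye disc against 80.4, 76.7 and 82.2 CPM in antennal disc, with overlapping ranges.

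The smallest V1 gene, Vha14-1, codes for the central stalk subunit F. It was at 66.4, 71.0 and 57.4 CPM in eye disc against 52.8, 57.8 and 52.1 CPM in antennal disc. VhaSFD, the gene of the regulatory subunit H, was at 133, 149 and 123 CPM against 116, 113 and 111 CPM. The tissues overlapped for Vha14-1 and were separate for VhaSFD, by the small gap between eye disc replicate 3 and antennal disc replicate 1.

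In the V0 sector the ring subunit c was carried by Vha16-1 (FBgn0262736, 2R, 6625242 to 6633090), the member with the most counts. It was at 759, 826 and 674 CPM in eye disc against 653, 625 and 632 CPM in antennal disc, with every eye disc library above every antennal disc library. VhaPPA1-1, of the second ring subunit c'', was at 104, 127 and 95.3 CPM against 95.2, 90.6 and 93.2 CPM, with ranges that parted only between 95.3 and 95.2 CPM. VhaAC39-1, of the subunit d that links the ring to the stalk, was at 110, 131 and 100 CPM against 103, 93.6 and 95 CPM and overlapped. VhaM9.7-b, of the small membrane subunit e, was at 60.5, 90.6 and 59.4 CPM in eye disc against 61.2, 60.5 and 61.5 CPM in antennal disc. Without eye disc replicate 2 the eye disc values of VhaM9.7-b lie at or below the lowest antennal disc value. VhaAC45, the accessory subunit gene, was at 122, 178 and 119 CPM against 117, 114 and 118 CPM, where eye disc replicate 3 and antennal disc replicate 3 lay 1 CPM apart.

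Per length, the order of these genes was led by the ring. On the scale of CPM per kb of exon, averaged over 6 libraries, Vha16-1 was at 226, Vha13 at 141 and Vha68-2 at 106, each above the next in at least 5 of 6 libraries. Vha14-1 (90.4) and Vha55 (85.8) followed and did not keep one order, with Vha14-1 the higher in 4 of 6 libraries. Between 77.7 and 54.0 CPM per kb lay, in falling order, Vha36-1, VhaPPA1-1, Vha26, VhaAC45, VhaAC39-1 and VhaM9.7-b. VhaSFD was at 43.9. The a subunit genes Vha100-1 (35.0) and Vha100-2 (31.2 CPM per kb) were the lowest of those over 50 CPM and changed places, with Vha100-1 the higher in 4 of 6 libraries. VhaM9.7-c (12.8), VhaAC45RP (11.7) and Vha68-1 (5.58 CPM per kb) closed the widely expressed class. Reads were assigned to whole gene spans, introns included, and the part of intron reads in this order was not tested.

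For most subunits with several genes, 1 gene held nearly all the counts. Of the counts of its subunit, Vha16-1 held at least 99.8% in every library, as did VhaAC39-1, VhaPPA1-1 and Vha14-1. Vha36-1 held 98.6% to 99.4%. The exceptions were subunit a, where Vha100-1 held 45.9% to 61.0%, subunit e, where VhaM9.7-b held 77.8% to 84.5%, subunit A, where Vha68-2 held 88.6% to 98.3%, and Ac45, where VhaAC45 held 71.4% to 96.7%.

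Most of the low class was close to silent in both discs. Of its 15 genes, 13 did not pass the filter on low counts, and none of these 13 had more than 8.82 estimated counts in a library, or 0.338 CPM. Vha16-2, Vha16-4, Vha100-3 and VhaM9.7-d were at 0 in all 6 libraries, where 3 counts correspond to 0.1 to 0.192 CPM, a floor for counting error only. Vha100-3 lies wholly inside the span of sano, and 84.5% of Vha16-2 is covered by an antisense RNA gene, so a listed 0 of these 2 genes can also come from how reads were shared out. The other members that failed the filter were Vha68-3, Vha36-2, Vha14-2, Vha100-4, Vha100-5, Vha16-3, Vha16-5, VhaAC39-2 and VhaPPA1-2.

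Several of these lie beside an active copy of the same subunit. Vha68-3, with 2.00 counts over the 6 libraries, starts 178 bases from the end of Vha68-2, with 43333. Vha100-4 lies 517 bases from Vha100-2, with 12.0 against 14550 counts, and VhaPPA1-2 lies 2052 bases from VhaPPA1-1, with 7 against 15003 counts. Each of these pairs is on one strand. Low members that reached 1 CPM in a library were VhaM9.7-a, described below, and Vha36-3. Vha36-3, a further D subunit gene, was at 0.495, 1.02 and 0.574 CPM in eye disc against 1.11, 1.00 and 0.268 CPM in antennal disc, with overlapping ranges and no call (log2 fold change -0.21 ± 0.62, edgeR F test, adjusted p = 0.829).

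The tissues were compared gene by gene with the quasi-likelihood F test of edgeR, with p-values adjusted by Benjamini-Hochberg over 9901 genes and calls under 0.05. Of 19 members tested, the eye disc had the higher level in 4 calls and the antennal disc in 0, and 15 members were left without a call. That is 21.1% of the members, beside 26.4% of all genes tested. Of all genes 14.6% were called higher in eye disc and 11.7% higher in antennal disc. The share of members called was thus near that of all genes. Of the 17 widely expressed members 3 were called, or 17.6%, beside 27.7% of the 7077 tested genes with a mean of at least 10 CPM. Of these 3, Vha68-1 and VhaAC45RP reached that mean only through their eye disc libraries. At an unadjusted p under 0.05 the edgeR counts were 7 higher in eye disc against 0 in antennal disc, which is 36.8% of the members beside 39.5% of all genes. DESeq2 called 6 and 0, or 31.6% beside 34% of all genes. These fits left out the replicate numbers. With the number as a block in edgeR the calls were 6 and 0, beside 30.4% of all genes. The median log2 fold change, eye disc over antennal disc, was 0.24 over the 19 members and 0.00 over all genes. Without eye disc replicate 2 it was 0.10 over the members. The library ranges of the tissues were separate for 9 of the 19 members, or 47.4%, and for 45.7% of all genes. In bulk samples, more cells of a type and more RNA per cell cannot be told apart.

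**Figure D2:**
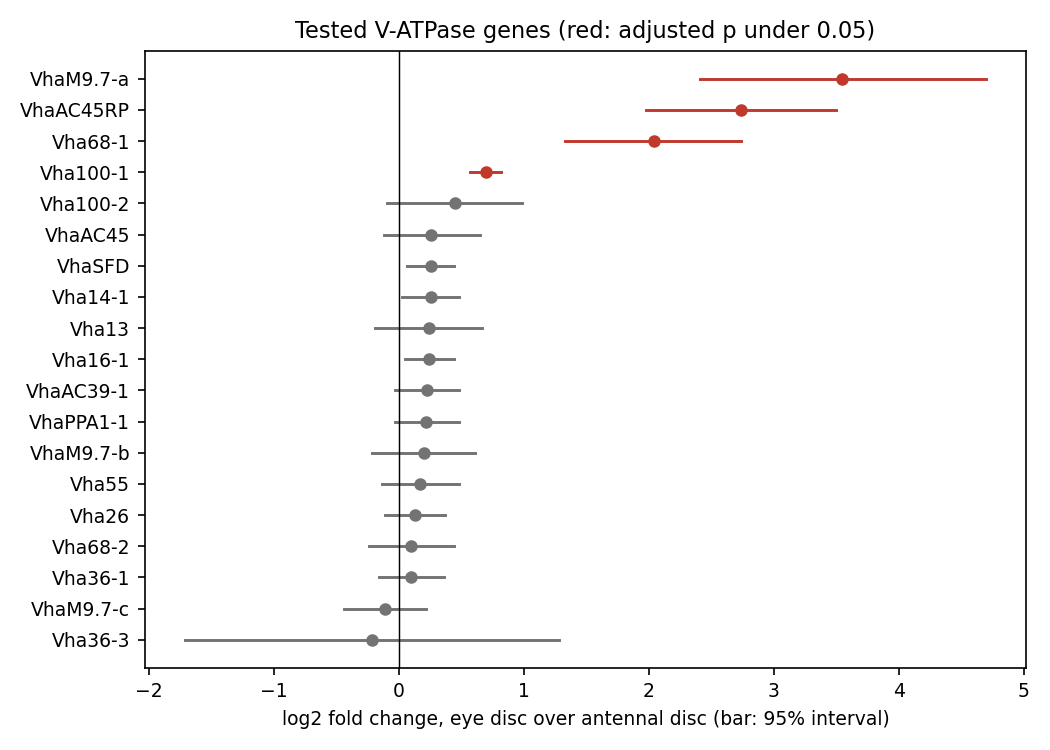
Log2 fold change, eye disc over antennal disc, of the 19 tested V-ATPase genes with 95% intervals from the edgeR fit; genes in red passed the adjusted p of 0.05. VhaM9.7-a, VhaAC45RP and Vha68-1 lie at 2.04 to 3.55, Vha100-1 at 0.70, and the rest between -0.21 and 0.45.

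The 4 genes higher in eye disc belong to 4 different subunits, and each of these subunits had another gene that was widely expressed in both tissues. VhaM9.7-a (FBgn0035521, 3L, 4262705 to 4263464) is a further gene of the small membrane subunit e. It was at 5.11, 5.17 and 8 CPM in eye disc against 0.322, 0.836 and 0.383 CPM in antennal disc. Every eye disc library was above every antennal disc library, the closest pair being 5.11 and 0.836 CPM. The log2 fold change was 3.55 ± 0.48 (SE), an 11.7-fold difference with a 95% interval of 2.41 to 4.70 on the log2 scale (edgeR F test, adjusted p = 0.00294). VhaM9.7-a passed the filter through its eye disc libraries, and its antennal disc level rests on few counts, 9 to 25.0 a library.

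VhaAC45RP (FBgn0051030, 3R, 30164692 to 30166419) codes for a relative of the accessory subunit Ac45. It was at 30.9, 23.5 and 47.8 CPM in eye disc against 3.94, 6.08 and 5.33 CPM in antennal disc. The groups were far apart, and eye disc replicate 3 was the highest. The log2 fold change was 2.74 ± 0.31, or 6.66-fold (edgeR F test, adjusted p = 0.00191). In antennal disc the 3.06 ± 0.650 CPM per kb (SD, n = 3) of VhaAC45RP stood beside 57.8 ± 1.10 CPM per kb of VhaAC45, and in eye disc 20.4 ± 7.44 stood beside 69.5 ± 16.4 CPM per kb.

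Vha68-1 (FBgn0265262, 2L, 13000770 to 13004107), a further gene of the catalytic subunit A, lies 22162 bases from Vha68-2 on the opposite strand. It was at 20.2, 18 and 33.8 CPM in eye disc against 5.50, 7.27 and 4.84 CPM in antennal disc, again separate and again highest in eye disc replicate 3. The log2 fold change was 2.04 ± 0.29, or 4.10-fold (edgeR F test, adjusted p = 0.00413). The counts of Vha68-1 and Vha68-2 were whole numbers in sum in all 6 libraries (within 0.01 of a count) but not singly in 5 of them, so that reads common to both copies were shared out between them. The level of Vha68-1, the smaller of the pair, is uncertain to that extent.

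Vha100-1 (FBgn0028671, 3R, 29131193 to 29137980) had the smallest spread of the 4. It was at 146, 136 and 145 CPM in eye disc against 91.0, 86.4 and 86.4 CPM in antennal disc. The tissues were separate, and eye disc replicate 2 was here the lowest of the eye disc libraries. The log2 fold change was 0.70 ± 0.05, or 1.62-fold, with an interval of 0.57 to 0.82 (edgeR F test, adjusted p = 0.000314). On the TPM (transcripts per-million) of the tables the call was lost (limma-trend on log2(TPM + 1), 0.47, adjusted p = 0.388). The TPM of Vha100-1 was 51.1, 29.3 and 52.6 in eye disc and 32.2, 29.9 and 30.0 in antennal disc, so that eye disc replicate 2 lay below every antennal disc library and the other eye disc libraries lay above them. In that library Sgs7 took 15.6% of all TPM. With the whole of eye disc replicate 2 left out, an alternative chosen after seeing the data, limma-trend on log2(TPM + 1) called the same 4 genes as the edgeR test.

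The other gene of subunit a, Vha100-2 (FBgn0028670, 3R, 18390323 to 18399169), was not called. Its level was 93.3, 160 and 95.3 CPM in eye disc against 83.2, 83.4 and 87.8 CPM in antennal disc, with separate ranges and eye disc replicate 2 far above the rest. The log2 fold change was 0.45 ± 0.22 with an interval of -0.09 to 0.99 (edgeR F test, adjusted p = 0.182), and 0.16 without eye disc replicate 2 (adjusted p = 0.0969). The span of Vha100-2 is covered for 24.6% by Vti1b. Summed with that gene, the levels were 129 ± 38.7 against 96.4 ± 1.60 CPM, a log2 ratio of 0.43.

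Paralogue shares were compared for the 5 subunits with at least 2 tested genes, always for the gene of second highest mean level. With 3 libraries against 3, the exact two-sided permutation test cannot go below p = 0.1, or 0.167 after Benjamini-Hochberg adjustment over these 5. VhaAC45RP held 20.2%, 11.7% and 28.6% of the Ac45 counts in eye disc and 3.27%, 5.07% and 4.31% in antennal disc. Vha68-1 held 7.02%, 4.61% and 11.3% of the subunit A counts in eye disc and 2.01%, 2.45% and 1.67% in antennal disc. In both cases every eye disc library was above every antennal disc library (exact permutation p = 0.1, adjusted 0.167). VhaM9.7-c held 14.5%, 10.7% and 11.7% of the subunit e counts in eye disc and 15.2%, 15.3% and 16.1% in antennal disc (exact permutation p = 0.1, adjusted 0.167). With the called gene VhaM9.7-a left out of the total, an alternative chosen after seeing the data, these shares were 15.5%, 11.2% and 13% against 15.2%, 15.4% and 16.1%, and the tissues overlapped (exact permutation p = 0.3). The span of VhaM9.7-c is wholly covered by other genes, and its log2 ratio turned from -0.11 to 1.09 when summed with them, so that no direction is drawn from its share.

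For subunit a the share depended on 1 library. Vha100-2 held 38.9%, 54.0% and 39.5% of the counts in eye disc and 47.7%, 49.1% and 50.4% in antennal disc, so that eye disc replicate 2 lay above and the other eye disc libraries below all antennal disc libraries (exact permutation p = 0.4, adjusted 0.5). The difference in mean share was -4.88 percentage points, and -9.79 without eye disc replicate 2. Vha36-3 held 0.325% to 1.36% of the subunit D counts in all libraries, with overlapping tissues (exact permutation p = 0.7, also after adjustment).

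**Figure D3:**
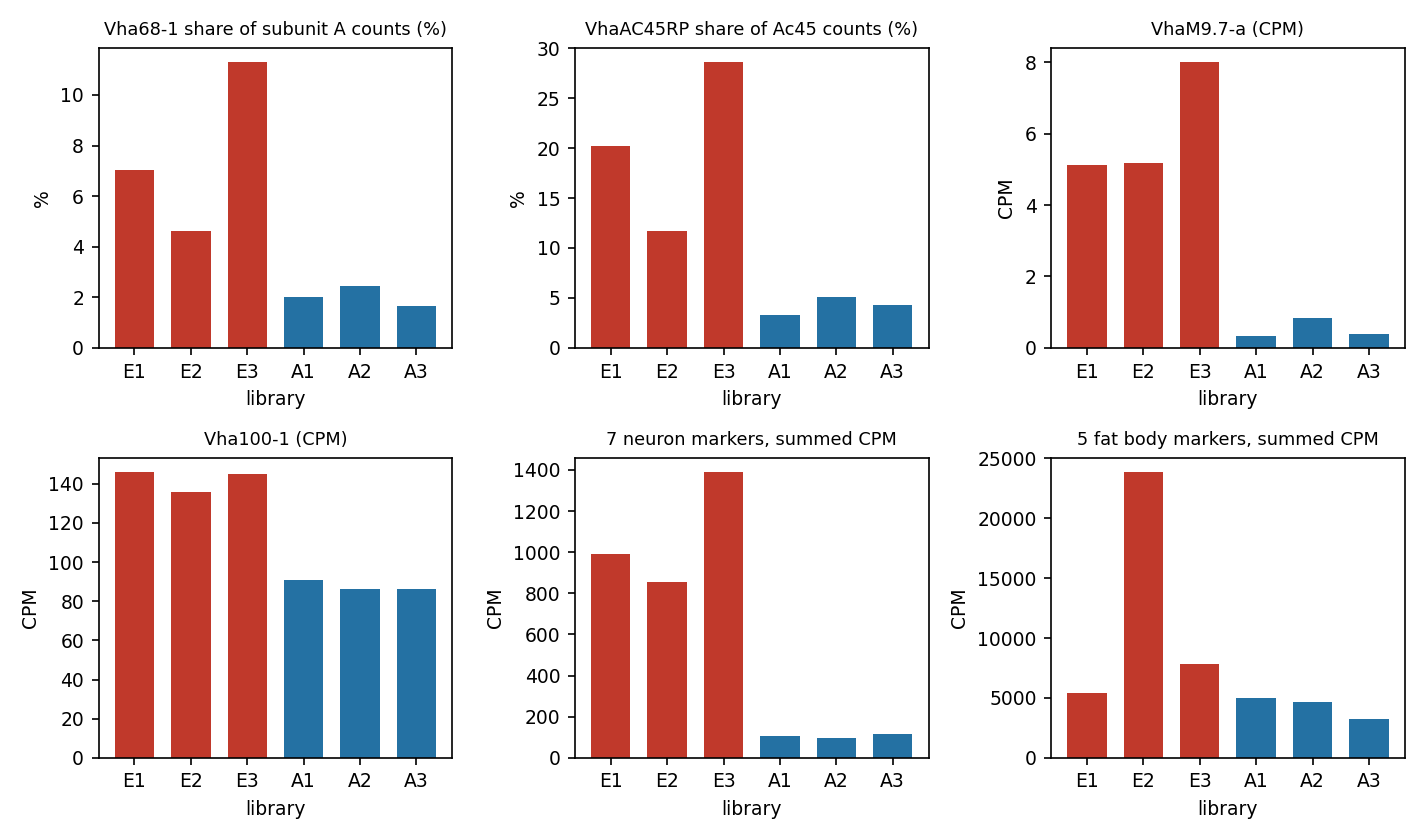
Values in each library (E1 to E3, eye disc replicates 1 to 3, red; A1 to A3, antennal disc replicates 1 to 3, blue): the share of 2 paralogues within their subunit in percent, the CPM of VhaM9.7-a and Vha100-1, and the summed CPM of neuron and fat body markers. Among eye disc libraries, VhaAC45RP, Vha68-1 and the neuron markers are highest in E3 and lowest in E2. Fat body markers are highest in E2 (23873 CPM). The order of 3 libraries does not link these values to one another.

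Summed markers of neurons, glia and hemocytes were, like the 4 genes, higher in every eye disc library than in any antennal disc library. The 7 neuron markers summed to 991, 853 and 1390 CPM in eye disc against 107, 97.8 and 115 CPM in antennal disc, with 6 of 7 called higher in eye disc and none at 0. The order of the eye disc libraries, with replicate 3 highest and replicate 2 lowest, was that of VhaAC45RP and Vha68-1. With 3 libraries, such an order does not link a gene to a cell type. VhaM9.7-a was also highest in replicate 3, and Vha100-1 was nearly level over the 3. The 5 glia markers summed to 458, 625 and 378 against 177 to 209 CPM (4 of 5 higher in eye disc). The 9 hemocyte and crystal cell markers summed to 1263, 1301 and 1543 against 532 to 616 CPM (8 of 9 higher in eye disc). Neither sum had the eye disc order of the summed neuron markers, but single members of both sets did, such as eater and wrapper. Others, such as Hml and repo, did not have that order, and neither did the neuron marker Syt1. Of the 9 hemocyte and crystal cell markers, lz differed most, at 126 against 19.8 CPM (log2 fold change 2.67), and the others ran from 0.73 (Hml) to 1.49 (PPO2). The 6 muscle markers summed to 132, 493 and 306 CPM in eye disc against 532 to 719 CPM in antennal disc (1 of 6 higher in antennal disc), and none of the 5 fat body markers was called. Beside these marker counts, 26.4% of all genes tested were called. The part of these cell types in the levels of VhaM9.7-a, VhaAC45RP, Vha68-1 and Vha100-1 was not tested.

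The calls of all 4 genes held in each of the 6 fits that left out 1 library. There VhaM9.7-a ranged from 3.29 to 4.09, VhaAC45RP from 2.40 to 2.95, Vha68-1 from 1.69 to 2.21 and Vha100-1 from 0.67 to 0.73 (log2 fold change, edgeR F test, highest adjusted p = 0.0253).

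The 14 widely expressed genes that were not called had small fold changes, and nearly all of them had their highest CPM in eye disc replicate 2. Their log2 fold changes ran from -0.11 to 0.45 with a median of 0.23, and 13 of 14 were positive. In 13 of the 14 the library highest in CPM was eye disc replicate 2. It held the highest value for 15.4% of the 7077 tested genes with a mean of at least 10 CPM. This order depends on the scale. In TPM, of which Sgs7 took 15.6% in that library, it was the lowest of the 6 for all 13 genes but Vha100-2. Vha16-1 was at 153 TPM there against 186 to 228 elsewhere, Vha68-2 at 129 against 151 to 161, and Vha100-2 at 26.2 against 22 to 26.3. In the edgeR fit without eye disc replicate 2 the median log2 fold change was 0.04, the range -0.17 to 0.19, and 10 of 14 were positive. The part of any fat body or salivary gland RNA of that library in these levels was not tested. The median coefficient of variation of these 14 genes in CPM was 14.9% in eye disc and 2.98% in antennal disc, beside 7.36% and 5.85% for the 7077 genes. Between eye disc replicates 1 and 3 it was 5.80% for the 14 genes, beside 6.26% for the 7077 genes.

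**Figure D4:**
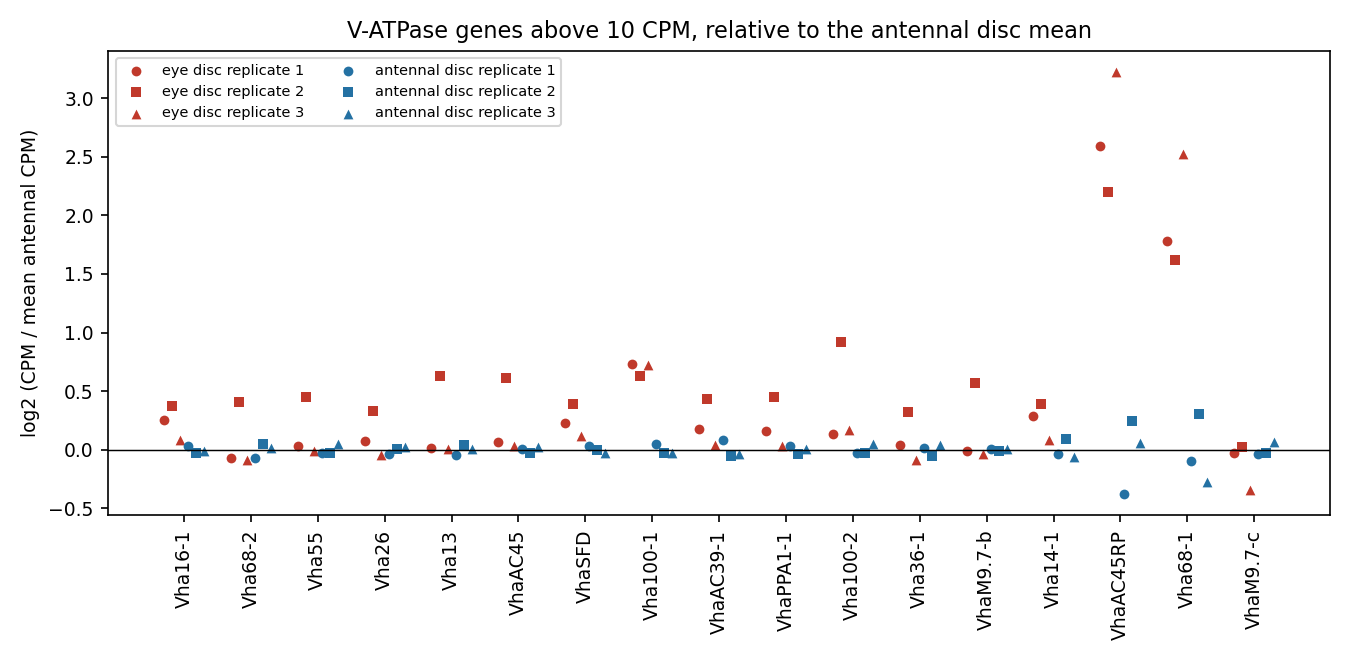
Log2 ratio of each library's CPM to the antennal disc mean for the 17 V-ATPase genes with a mean of at least 10 CPM, in falling order of level. On this CPM scale, eye disc replicate 2 (red squares) is the highest library for 13 genes that were not called. For Vha100-1, VhaAC45RP and Vha68-1 all 3 eye disc libraries lie above the antennal disc libraries, as they also do for 5 of the 14 genes that were not called.

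Among these 14 genes, 3 passed an unadjusted p of 0.05 but not the adjusted one, and were singled out after their values were seen. Vha16-1 had a log2 fold change of 0.24 ± 0.08 (interval 0.05 to 0.44, edgeR F test, adjusted p = 0.0735), VhaSFD one of 0.26 ± 0.08 (0.07 to 0.44, adjusted p = 0.0537) and Vha14-1 one of 0.26 ± 0.09 (0.03 to 0.48, adjusted p = 0.0889). With the replicate number as a block, VhaSFD (0.25, adjusted p = 0.0436) and Vha14-1 (0.26, adjusted p = 0.0420) were called and Vha16-1 was not (0.24, adjusted p = 0.0648). DESeq2 called Vha16-1 (adjusted p = 0.0122) and VhaSFD (0.015) and not Vha14-1 (0.0557). Without eye disc replicate 3 all 3 were called, at 0.31, 0.31 and 0.33 for Vha16-1, VhaSFD and Vha14-1, and without eye disc replicate 2 none was, at 0.18, 0.18 and 0.19 (edgeR, lowest adjusted p = 0.0755).

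For the rest the intervals bound the difference. The log2 fold change was 0.10 for Vha68-2 (interval -0.24 to 0.44), 0.17 for Vha55 (-0.13 to 0.48), 0.13 for Vha26 (-0.11 to 0.37) and 0.10 for Vha36-1 (-0.16 to 0.36). It was 0.24 for Vha13 (-0.19 to 0.67), 0.22 for VhaPPA1-1 (-0.03 to 0.48), 0.23 for VhaAC39-1 (-0.03 to 0.48), 0.20 for VhaM9.7-b (-0.21 to 0.61) and 0.26 for VhaAC45 (-0.12 to 0.65). None of these intervals reaches a 2-fold difference, and none shows that the levels are alike. Without eye disc replicate 2 the value was -0.07 for Vha68-2, 0.02 for Vha55, 0.02 for Vha26, -0.02 for Vha36-1 and 0.01 for Vha13. There it was 0.10 for VhaPPA1-1, 0.12 for VhaAC39-1, -0.02 for VhaM9.7-b and 0.06 for VhaAC45.

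VhaM9.7-c is a special case. It was at 11.1, 11.5 and 8.91 CPM in eye disc against 11, 11.1 and 11.8 CPM in antennal disc (log2 fold change -0.11, interval -0.44 to 0.22, edgeR adjusted p = 0.592). Its span lies wholly inside the spans of CG18675 and Teh2. Summed with them, the level was 27.4 ± 1.70 CPM in eye disc against 12.9 ± 0.443 CPM in antennal disc, a log2 ratio of 1.09, which also holds the other genes' own differences. Neither value settles the level of VhaM9.7-c.

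Summed over the 17 widely expressed genes, the V-ATPase took 2562, 3129 and 2429 CPM in eye disc against 2265, 2251 and 2274 CPM in antennal disc. On this scale all 3 eye disc libraries were above, by a log2 ratio of 0.26 for the means and 0.14 without eye disc replicate 2. As a sum of TPM, eye disc replicate 2 (1686) lay below every antennal disc library (1946 to 1981), and the log2 ratio was 0.04. The sum holds Vha68-1 and VhaAC45RP, whose antennal disc means of 5.87 and 5.12 CPM are under the threshold of 10 CPM. The 8 V1 genes summed to 1217 ± 198 against 1071 ± 20.5 CPM, a log2 ratio of 0.19 that was 0.04 without eye disc replicate 2 and -0.01 as TPM. The 7 V0 genes summed to 1315 ± 154 against 1072 ± 24.1 CPM, a log2 ratio of 0.30 that was 0.20 without that library and 0.04 as TPM. No test was run on these sums.

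Genes around the pump were described from lists of 74 tested genes. Of 6 tested assembly factors and regulators of the V-ATPase, 0 were called higher in eye disc and 1 lower there (edgeR). That is 16.7% beside 26.4% of all genes. The counts were also 0 and 1 at an unadjusted p under 0.05 (39.5% of all genes) and with DESeq2 (34% of all genes). The median log2 fold change was -0.09. The one called was Mitf, a transcription factor known in the fly to regulate V-ATPase genes, at 69.5 ± 3.00 CPM in eye disc against 82.0 ± 4.98 CPM in antennal disc. Its log2 fold change was -0.24 (edgeR adjusted p = 0.0404), and the call was lost in 5 of the 6 leave-one-out fits, whose values ran from -0.29 to -0.21 (highest adjusted p = 0.118). Not called were the rabconnectin gene Rbcn-3A, which acts in pump assembly, at 166 ± 14.8 against 178 ± 11.8 CPM, and ATP6AP2, a second accessory protein of the pump, at 160 ± 21.2 against 137 ± 3.54 CPM. Rbcn-3B is listed at 0 in all 6 libraries, and its span lies wholly inside another gene's, mip130.

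Of 15 endosomal traffic genes none was called, beside 26.4% of all genes (median 0.07). At an unadjusted p under 0.05, 2 were higher in eye disc, or 13.3% beside 39.5% of all genes. DESeq2 called none of them, beside 34% of all genes. Of 13 genes of TORC1 signalling at the lysosome none was called either (median 0.01, edgeR). At an unadjusted p under 0.05, 2 were higher in eye disc against 1 in antennal disc, or 23.1%. By DESeq2 the calls were 1 and 1, or 15.4%. Of 18 lysosomal genes, 3 were higher in eye disc against 2 in antennal disc, or 27.8% beside 26.4% of all genes (median 0.17, edgeR). At an unadjusted p under 0.05 the counts were 5 and 2, or 38.9% beside 39.5% of all genes. By DESeq2 they were 4 and 2, or 33.3% beside 34% of all genes. The sterol carrier Npc2a was at 86.2 ± 8.10 against 28.0 ± 1.24 CPM (log2 fold change 1.62, edgeR adjusted p = 7.85e-05) and the hexosaminidase gene Hexo2 differed by 1.12 (adjusted p = 0.00334). The palmitoyl thioesterase gene Ppt1 differed by -0.57 (adjusted p = 0.00115) and Hexo1 by -0.26 (adjusted p = 0.0236), the latter lost in 3 of the 6 leave-one-out fits.

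Of 10 other ion transport genes, 3 were higher in eye disc against none in antennal disc, or 30% beside 26.4% of all genes (median 0.32, edgeR). The counts were 4 and 0 both at an unadjusted p under 0.05 and by DESeq2. That is 40%, beside 39.5% and 34% of all genes. The 3 called by edgeR code for subunits of the sodium pump. The beta subunit gene nrv3 was at 48.2 ± 16.6 against 3.38 ± 0.901 CPM (3.84, edgeR adjusted p = 0.000708). Atpalpha and nrv2 differed by 0.44 each (edgeR adjusted p = 0.00247 and 0.00357). The 12 synaptic vesicle genes differed most, with 8 higher in eye disc against none in antennal disc (median 3.33, edgeR). That is 66.7% beside 26.4% of all genes. Both at an unadjusted p under 0.05 and by DESeq2 the counts were 9 and 1, or 83.3%, beside 39.5% and 34% of all genes. The active zone gene brp was at 143 ± 40.5 against 6.46 ± 1.32 CPM (4.47, edgeR adjusted p = 0.000244). Of the called genes, brp, nSyb and Syt1 are also among the neuron markers above, so the 2 lists are not separate observations. The acetylcholine transporter gene VAChT was also called (edgeR adjusted p = 0.00976), with 110, 17.9 and 282 estimated counts in eye disc against 0, 0.45 and 1.96 in antennal disc, too few for a fold, and lies wholly inside ChAT.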

How the data were processed

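Per the file headers and the labels, the authors deposited, for each of 6 samples, estimated counts and TPM per gene with the columns that kallisto writes. The submitters' processing notes name FastQC, kallisto, bedtools and dm6; for versions, annotation release and strand setting, none is given in these sources. Listed lengths of all 32 members equal the whole gene span, introns included, and 9 members overlap another gene, where estimated counts can be shared out in either direction. Symbols, coordinates and exon lengths came from an Ensembl BDGP6 annotation with dm6 coordinates, which matched 17622 of 17753 identifiers.

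Estimated counts were rounded, filtered with filterByExpr, scaled by TMM and tested by the robust quasi-likelihood F test of edgeR 4.0.16 (R 4.3.3), without covariates, over 9901 genes, with Benjamini-Hochberg adjustment and calls under 0.05. CPM use TMM-scaled library sizes and are given per library or as mean ± SD over 3. The SE is the absolute log2 fold change over the square root of F. CPM per kb are divided by merged exon length. Means, shares and permutations used pandas 2.3.3 and scipy 1.17.1. Alternatives were DESeq2 1.42.0, limma 3.58.1 on log2(TPM + 1) or log2(TPM + 0.1), other scalings and filters, a replicate block and leaving out each library. The steps were tested on simulated data. A further deposited file per sample repeats TPM (equal in all 6) for genes of chosen regions, 1 member among them, VhaM9.7-d, at 0.

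Same-numbered libraries shared their deviations from the tissue means (correlation across genes 0.453, 0.344 and 0.263), so that the numbers were taken to pair the samples, from the data and not from the labels. The main edgeR fit and the permutations of shares did not use this pairing. Of the fits, only the replicate block used it, with 6 V-ATPase genes called against 4 in the main fit. Libraries of a tissue differed by more than sampling noise (chi-square per degree of freedom 16.1 to 353). All members were described, the called members of other lists by their 2 largest changes in each direction. Members and lists were chosen with earlier results of these data known.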

Additional observations from a re-analysis of the deposited data

How the results depend on the processing

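Of the 4 V-ATPase genes called, all stayed called under DESeq2 (6 calls in all), RLE size factors (4), library totals alone (4), no filter (4), a filter of 1 CPM in 3 libraries (5) and the replicate block (6, with Vha14-1 and VhaSFD added). Of all genes, these settings called 34%, 26.6%, 19.5%, 18.2%, 27.6% and 30.4% in the same order, beside 26.4% in the main fit. With limma-trend on log2(TPM + 1) or log2(TPM + 0.1) there were 3 calls, without Vha100-1, beside 12.1% and 12.6% of all genes. That scale moved the median of all genes by -0.18 and -0.20. Leaving out 1 library gave 4 to 7 calls, beside 14.5% to 24.9% of all genes. The 7 calls came without eye disc replicate 3, where 21.6% of all genes were called. None of these alternatives called a V-ATPase gene higher in antennal disc. The other lists had 17 calls (14 for eye disc, 3 for antennal disc), 10 (10 and 0) and 11 (11 and 0) with limma-trend on TPM + 1 and TPM + 0.1, 14 (13 and 1) on library totals alone, 24 with the replicate block, and 13 to 19 with 1 library left out; the cause was not tested. The summed level of the 17 widely expressed genes differed by a log2 ratio of 0.26, by 0.04 as a sum of TPM, where Sgs7 took 15.6% of eye disc replicate 2, and by 0.14 to 0.33 with 1 library left out. Differences in mean paralogue share kept their sign with TPM, with counts per kb of exon and with 1 library left out. A mean of 5, 10 or 20 CPM as the threshold gave 17, 17 and 14 widely expressed genes, and 10 CPM per kb of exon gave 16. Depth limits the low class: 3 counts are 0.1 to 0.192 CPM.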
